A study of Mus musculus with 28 samples.

Results

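The effect of cisplatin on bulk tumor RNA was estimated across tumors with and without immune checkpoint blockade (ICB). The comparison used 18 of the 28 tumors of the series. There were 9 cisplatin-treated tumors, 4 given cisplatin alone and 5 given cisplatin+ICB. The other 9 received no chemotherapy and came from the same count matrix, 4 as the PBS group and 5 as the ICB group. The tumors were taken by their treatment labels, and the rule uses no measured value. Cisplatin minus no cisplatin was estimated in an additive model with ICB (yes or no) as a covariate, and the fit was repeated in 17 tumors, without cisplatin+ICB tumor 1. Values are for all 18 tumors unless the 17 are named. All mice were female BALB/c (BALB/c.AusBP), 8 to 10 weeks old, and all carried the same subcutaneous tumor, the mouse mesothelioma line AB1-HA, which expresses an influenza hemagglutinin as a model antigen. Cisplatin was injected intraperitoneally at 6 mg/kg. ICB combined 1 dose of 100 µg anti-CTLA-4 with 3 doses of 100 µg anti-PD-L1. The RNA was taken from whole tumors 7 days after treatment began, and each tumor came from a different mouse. The tumors therefore represent 1 cell line, 1 dose and 1 time point.

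Cisplatin binds purine bases in DNA and links them within and between the strands, which stalls replication and transcription. The lesions are removed by nucleotide excision repair and crosslink repair. They activate the kinases ATR and ATM and the transcription factor p53, which in turn induces Cdkn1a (p21, the inhibitor of cyclin-dependent kinases that holds cells in G1) and Mdm2 (the ubiquitin ligase that limits p53 itself). Because a tumor holds cancer cells, macrophages, lymphocytes, fibroblasts and vessels, RNA of a whole tumor sums over all of them. In such samples fewer cells of a type and less RNA per cell cannot be told apart.

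The 18 libraries held between 25502173 and 33950805 estimated counts, with a median of 29094761. Levels are given as CPM, counts scaled to the same library size after TMM normalization, and 3 counts correspond to between 0.0863 and 0.159 CPM. Cisplatin+ICB tumor 1 stood apart from the other libraries. Its mean correlation with the tumors of its own group was 0.83, against 0.933 to 0.979 for the other 17 tumors, it had 388.7 CPM of the globin gene Hbb-bs, and its fibroblast, endothelial and collagen markers were lower than in any other cisplatin+ICB tumor. Cisplatin+ICB tumor 3 had lymphocyte markers near the levels of tumors without ICB, as tumor 1 did. ICB tumor 2 carried keratins of the skin (181.4 CPM of Krt5 and 241.8 CPM of Krt14) and ICB tumor 3 carried muscle RNA (1270 CPM of Acta1). The mesothelioma markers Msln (52.4 to 656.4 CPM) and Vim (2235 to 5325 CPM) were present in all 18 tumors, but the mesothelial factor Wt1 was at 0 in at least 1 PBS tumor and reached at most 1.93 CPM, and Krt18 was too low to be tested.

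Few genes differed between the arms. Of 17819 genes tested in the 18 tumors, 2 were differentially expressed (0.0112%), both lower with cisplatin: Fxyd2 and Crym. To be called a differentially expressed gene (DEG), a gene needed an absolute log2 fold change over 0.5 and an adjusted p under 0.05 (edgeR quasi-likelihood fit, p-values corrected by Benjamini-Hochberg). A further measure with no correction, an unadjusted p-value under 0.05, was met by 950 genes (5.33%), of which 418 were higher (2.35% of the genes tested) and 532 lower (2.99%). Without cisplatin+ICB tumor 1, edgeR called 0 of 17772 genes, with a smallest adjusted p-value of 0.0782, while 1299 genes (7.31%) had an unadjusted p-value under 0.05, 650 higher (3.66%) and 649 lower (3.65%). DESeq2, the alternative count test, called 6 of 34554 genes (0.0174%) in the 18 tumors and 14 of 22710 (0.0616%) in the 17, and all 6 were among the 14. Limma's voom with sample weights called 14 and 7. Those 6 were Fxyd2, Crym and Fam167b, which were lower (0.00868%), and Cdkn1a, Inka2 and Fgf23, which were higher (0.00868%), and of the 14 in the 17 tumors 8 were higher (0.0352%) and 6 lower (0.0264%). The median log2 fold change over all genes was 0.03 in the 18 tumors and -0.01 in the 17.

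**Figure D1:**
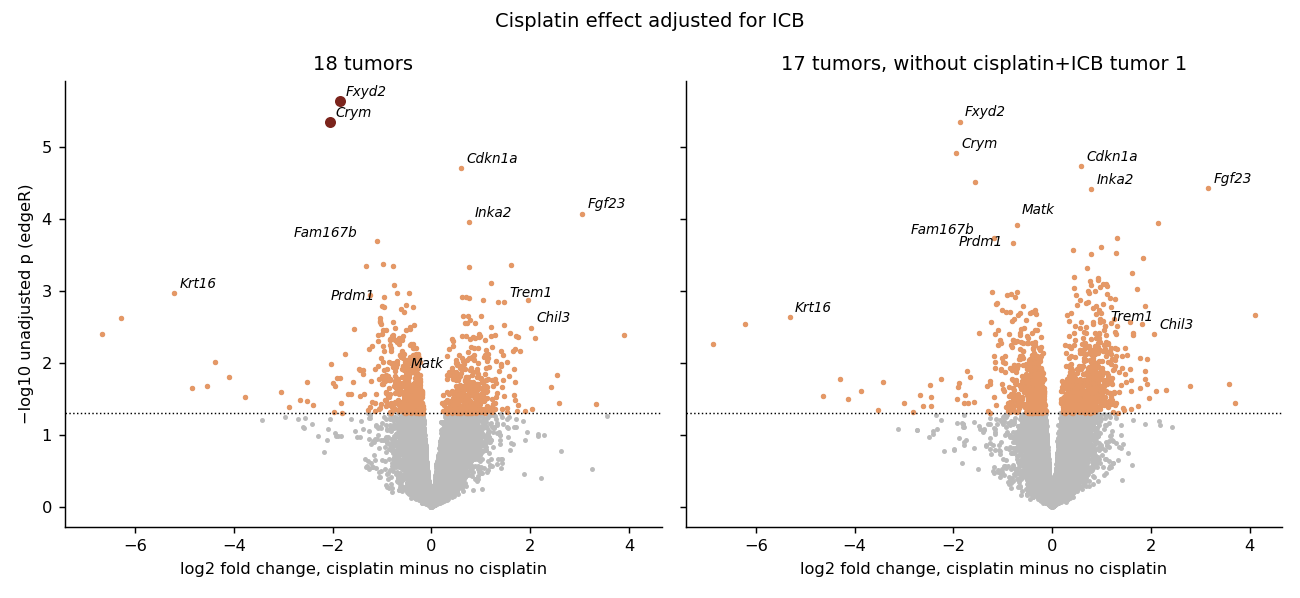
Log2 fold change of cisplatin against no cisplatin, adjusted for ICB (x axis), against the unadjusted edgeR p-value on a -log10 scale (y axis), for all 18 tumors and without cisplatin+ICB tumor 1. Each point is a gene, dark red marks the DEGs, orange an unadjusted p-value under 0.05, whose level is the dotted line, and the 2 DEGs of the 18 tumors lie on the lower side at -1.85 (Fxyd2) and -2.06 (Crym).

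Fxyd2 encodes a small membrane protein that modulates the Na,K-ATPase. The gene lies at chr9:45399669-45410278 on the forward strand (GRCm38). Its levels in the PBS tumors were 3.92, 8.47, 5.32 and 3.77 CPM, and in the cisplatin tumors 1.88, 1.18, 1.67 and 1.71 CPM. With ICB they were 6.14, 7.60, 22.1, 5.10 and 14.5 CPM without cisplatin and 3.62, 2.09, 2.48, 3.14 and 3.18 CPM with it. All 9 cisplatin-treated tumors were below all 9 others. The adjusted difference was -1.85 on the log2 scale (SE 0.272, edgeR adjusted p = 0.0395). Crym encodes mu-crystallin, a cytosolic protein that binds thyroid hormone, and lies at chr7:120186380-120202111 on the reverse strand. It measured 1.13, 1.92, 0.75 and 1.49 CPM in PBS tumors and 0.56, 0.49, 0.10 and 0.41 CPM in cisplatin tumors, the lowest of which rests on 3 counts. With ICB the levels were 3.21, 3.72, 6.58, 2.70 and 5.03 CPM, and with cisplatin+ICB 0.48, 1.16, 0.44, 1.30 and 0.94 CPM. The groups did not overlap within tumors without ICB or within tumors with it. Crym fell by 2.06 on the log2 scale (SE 0.318, edgeR adjusted p = 0.0395). ICB tumor 3, the highest for both genes, was also the highest of the 18 for the macrophage receptor gene Csf1r (1448 CPM), and the part of macrophages in these values was not tested. Without cisplatin+ICB tumor 1 the differences were -1.87 for Fxyd2 and -1.94 for Crym, and neither passed the adjusted threshold. When each tumor was left out in turn, Fxyd2 stayed a DEG in the fits without PBS tumor 3, PBS tumor 4, ICB tumor 1, ICB tumor 3, ICB tumor 4 or cisplatin tumor 1, and Crym in those without PBS tumor 3, ICB tumor 4 or cisplatin tumor 1. In no other of the 18 fits was either gene called, although the differences ranged only from -1.94 to -1.62 for Fxyd2 and from -2.17 to -1.92 for Crym.

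The genes that DESeq2 added were led by Cdkn1a. Its levels were 143.3, 155.2, 128.5 and 134.9 CPM in PBS tumors and 177.1, 218.7, 215.9 and 229.8 CPM in cisplatin tumors. With ICB they were 129.0, 162.9, 119.0, 162.3 and 161.6 CPM without cisplatin and 261.3, 236.1, 186.6, 205.4 and 221.2 CPM with it. Every cisplatin-treated tumor was above every tumor without cisplatin. The difference was 0.59 (SE 0.103), with an adjusted p-value of 0.114 in edgeR and 2.78e-06 in DESeq2, and without cisplatin+ICB tumor 1 it was 0.57 (edgeR adjusted p = 0.109). Inka2 encodes an inhibitor of the PAK4 kinase and lies at chr3:105704599-105720842 on the forward strand. It measured 4.97, 5.30, 5.42 and 6.91 CPM in PBS tumors, 8.55, 7.56, 10.7 and 8.44 CPM in cisplatin tumors, 4.30, 2.65, 4.46, 6.16 and 4.31 CPM in ICB tumors and 7.23, 7.80, 10.7, 7.05 and 7.08 CPM in cisplatin+ICB tumors. The arms again did not overlap. Inka2 differed by 0.77 (SE 0.155), with an adjusted p-value of 0.388 in edgeR and 0.00078 in DESeq2.

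Fgf23 encodes a hormone of phosphate balance that is known mainly from bone, and lies at chr6:127072902-127081408 on the forward strand. It measured 0.16, 0.78, 0.14 and 0.33 CPM in PBS tumors and 3.19, 0.84, 1.00 and 1.21 CPM in cisplatin tumors. With ICB the levels were 0.31, 0.35, 0.16, 0.09 and 0.11 CPM without cisplatin and 0.48, 0.67, 3.63, 1.37 and 8.54 CPM with it. The groups did not overlap with or without ICB, but the tumors without cisplatin lay close to the floor, several at 3 or 4 counts. The fitted difference was 3.05 (SE 0.603) in edgeR and 3.09 in DESeq2, and its dependence on the low counts was not tested. The adjusted p-value was 0.373 in edgeR and 0.000398 in DESeq2. Fam167b, at chr4:129576815-129578549 on the reverse strand, measured 1.98, 3.37, 1.94 and 1.85 CPM in PBS tumors and 1.35, 0.68, 1.57 and 2.06 CPM in cisplatin tumors, which overlap. With ICB it measured 5.02, 5.33, 6.02, 3.34 and 5.33 CPM, against 2.82, 1.22, 1.62, 1.99 and 1.56 CPM with cisplatin+ICB, which do not. It differed by -1.11 (SE 0.239), with an adjusted p-value of 0.594 in edgeR and 0.0139 in DESeq2.

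**Figure D2:**
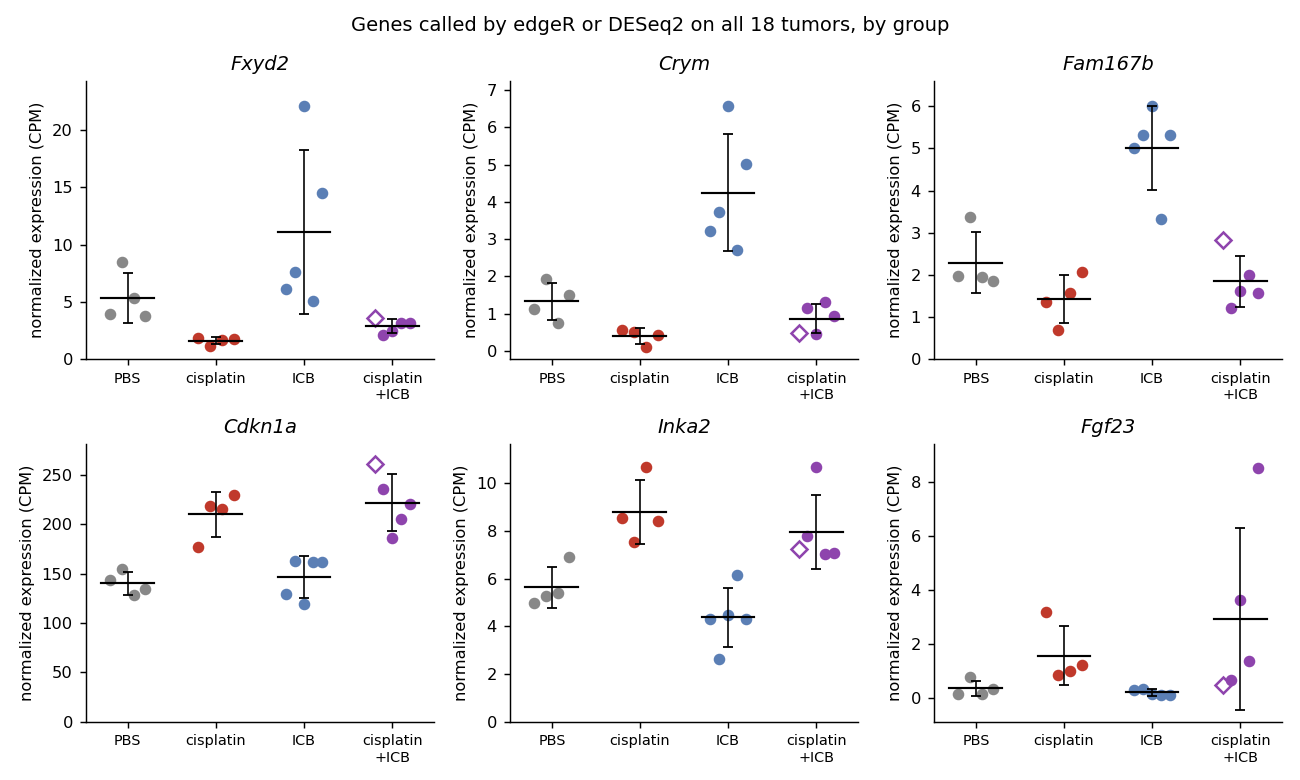
Levels in CPM (y axes, linear) of Fxyd2, Crym, Fam167b, Cdkn1a, Inka2 and Fgf23 in each tumor of the 4 groups (x axis). Points are tumors, the line is the group mean and the bar its SD, and the open diamond is cisplatin+ICB tumor 1. For Fxyd2, Cdkn1a and Inka2 the cisplatin-treated tumors lie wholly on one side of the others.

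Across all genes, complete separation of the arms was rare. The cisplatin-treated tumors lay above the others both without ICB and with ICB for 5 genes (0.0281% of those tested) and below for 6 (0.0337%). The 5 were Cdkn1a, Inka2, Fgf23, the p53-induced long non-coding RNA Trp53cor1 (lincRNA-p21) and the predicted gene Gm47414. The 6 were Fxyd2, Crym, Ctsf (cathepsin F, a lysosomal protease), Vdac2 (a channel of the outer mitochondrial membrane), the adhesion receptor gene Adgrf3 and the predicted gene Gm48065. All 9 treated tumors lay above all 9 others for Cdkn1a and Inka2 (0.0112%), and below for Ctsf, Fxyd2 and Vdac2 (0.0168%). Ctsf ranged from 8.13 to 11.5 CPM with cisplatin and from 11.8 to 33.97 CPM without (difference -0.78, SE 0.182, edgeR adjusted p = 0.745). Vdac2 ranged from 194.5 to 252.6 CPM with cisplatin and from 262.0 to 383.4 CPM without (difference -0.35, SE 0.102, edgeR unadjusted p = 0.00293). The counts of separated genes in the 17 tumors were 11 higher (0.0617%) and 12 lower (0.0673%). Fgf23, Trp53cor1, Vdac2, Adgrf3 and Gm47414 are named here because of these values.

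The p53 target genes lay mostly on the higher side. Of 39 targets, all of which were tested, 31 had a difference above 0 (79.5%, against 54.2% of all genes), and the median difference was 0.27. At an unadjusted p-value under 0.05, 9 were higher (23.1%, against 2.35% of all genes) and 1 was lower, and 0 were DEGs in edgeR, while DESeq2 called Cdkn1a. Without cisplatin+ICB tumor 1, 11 were higher (28.2%, against 3.66%) and 0 lower, with a median of 0.21. Leaving out each tumor in turn gave between 8 and 12 higher genes. The list was drawn up with earlier results of these tumors known and is not independent evidence of a direction.

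Within the loop of p53 and its regulators, Mdm2 measured 72.0 to 92.9 CPM in PBS tumors and 74.7 to 99.2 CPM in cisplatin tumors, which overlap, and 55.2 to 78.4 CPM with ICB against 81.4 to 140.2 CPM with cisplatin+ICB, which do not. Its difference was 0.42 (SE 0.131, edgeR unadjusted p = 0.00472). Ccng1 (cyclin G1, a p53 target that acts on Mdm2) measured 172.3 to 557.2 CPM without cisplatin and 293.8 to 815.7 CPM with it, a difference of 0.55 (SE 0.207, unadjusted p = 0.0155), and of 0.37 in the 17 tumors. Trp53 itself, the gene of p53, whose activity is set mostly by protein stability, was at 152.1 ± 39.5 CPM without cisplatin and 136.1 ± 40.9 CPM with it (SD, n = 9 each, difference -0.16, and -0.02 without cisplatin+ICB tumor 1, which had 42.9 CPM).

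Among the other targets, the results were mixed. Phlda3 (an inhibitor of AKT) measured 82.6 to 107.1 CPM in PBS tumors and 91.2 to 121.2 CPM in cisplatin tumors, and 33.2 to 59.4 CPM with ICB against 58.7 to 289.9 CPM with cisplatin+ICB, the highest being tumor 1. Its difference was 0.83 with that tumor and 0.43 without it. Eda2r (a member of the TNF receptor family) differed by 0.85 in the 18 tumors and 0.53 in the 17. Bax (the pore-forming effector of mitochondrial death) differed by 0.32 and by 0.04 without cisplatin+ICB tumor 1, where it measured 300.9 CPM against 81.4 to 109.4 CPM in the rest of the group. Zmat3 (an RNA-binding protein) differed by 0.32 and 0.46, and Trp53inp1 by 0.32 and 0.44, so their estimates were larger without that tumor. Trp53inp1 (a stress protein that promotes autophagy) differed by 0.79 for cisplatin against PBS and by -0.06 for cisplatin+ICB against ICB, a value that was 0.11 without tumor 1. Its interaction had an unadjusted p-value of 0.0109 and an adjusted one of 0.564 in edgeR. Other members higher at an unadjusted p-value under 0.05 were Polk (a translesion polymerase, 0.44), Ephx1 (an epoxide hydrolase, 0.37), Psrc1 (0.82, and 0.40, no longer at that level, in the 17 tumors) and Trp53cor1 (0.72). Perp was the member on the lower side (-2.40), with 43.6 CPM in ICB tumor 2, the tumor with skin keratins.

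For Trp53 and the 8 targets Cdkn1a, Mdm2, Ccng1, Bax, Phlda3, Eda2r, Zmat3 and Trp53inp1, a two-sided exact permutation test exchanged the cisplatin labels within the tumors with ICB and within those without. The smallest p-value it can give is 0.000113, and Cdkn1a reached it in the 18 and the 17 tumors. For Mdm2 the exact permutation p was 0.00272 in 18 tumors and 0.00522 in 17, for Phlda3 0.00261 and 0.00533, for Eda2r 0.00964 and 0.0187, and for Ccng1 0.0167 and 0.0306. Trp53inp1 had exact permutation p-values of 0.0839 and 0.0122. Zmat3 (0.291 and 0.0501), Bax (0.466 and 0.867) and Trp53 (0.372 and 0.783) did not reach 0.05 in either exact permutation test. These p-values were not adjusted for the 9 genes.

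**Figure D3:**
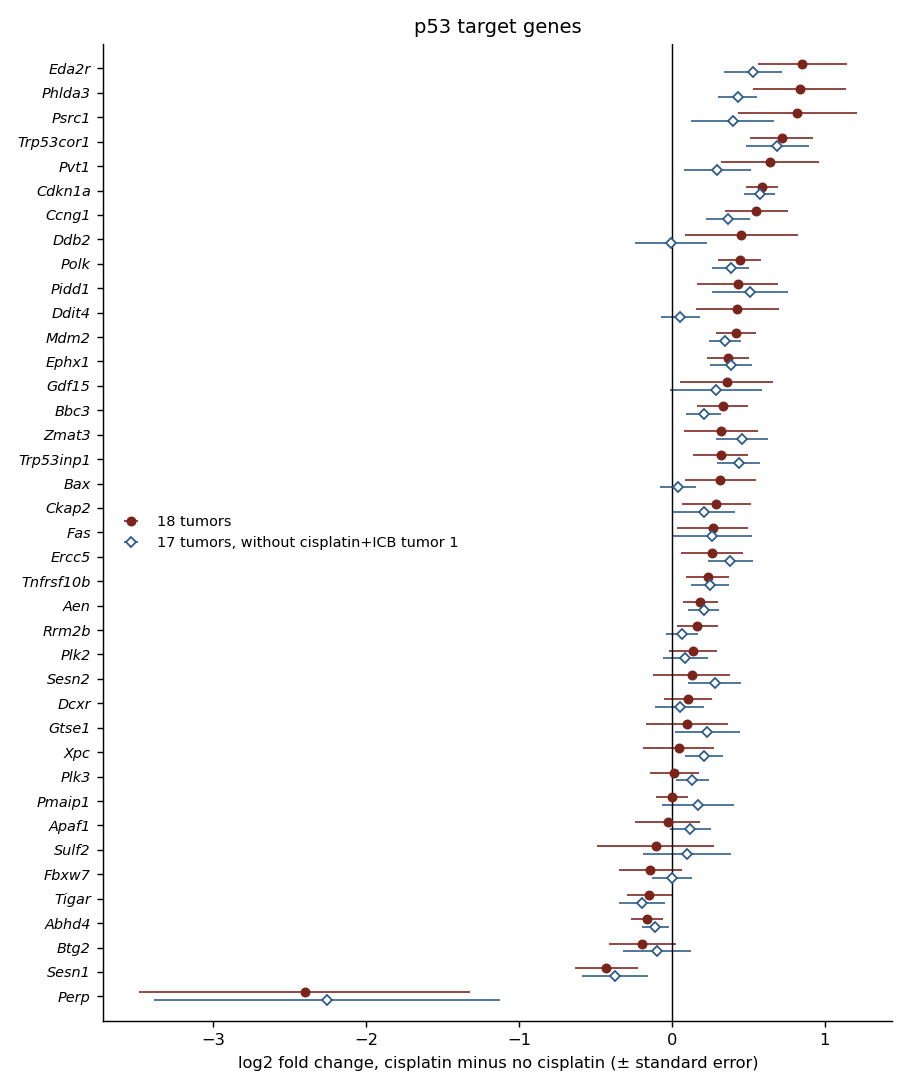
Log2 fold change of cisplatin against no cisplatin, adjusted for ICB (x axis), for the 39 p53 target genes (y axis), with the SE as bars. Filled points are the 18 tumors and open points the 17 without cisplatin+ICB tumor 1. In the 18 tumors 31 of the points lie above 0, Cdkn1a at 0.59.

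The promoters of these genes can be read against the binding motif of p53, which occurs as pairs of a consensus decamer. The RefSeq promoter table (GRCm38.p6, 250 bases before to 50 after each start) held 29 of the 39 targets, and 10 of them (34.5%) had at least 1 decamer that matches the p53 consensus, which reads alike on both strands, against 2582 of 27025 genes in the table (9.55%) and 2745 of 32851 promoters (8.36%). Among the targets with an unadjusted p-value under 0.05 on the higher side 4 of 8 had one, and among the others 6 of 21. Of the 6 genes DESeq2 called, 4 were in the table, and Fxyd2 and Crym were not. Cdkn1a, Inka2 (at 1 of its 2 starts) and Fam167b, which was lower with cisplatin, had a decamer, and Fgf23, which was higher, had none. A match of these letters is a description of the sequence, and no binding was measured. The following 300-base promoters, written 5′ to 3′ in the direction of the gene with the decamers in capitals, are those of Cdkn1a (chr17:29090729-29091028, forward strand), of the other p53 loop genes Mdm2 (chr10:117710709-117711008, reverse strand) and Ccng1 (chr11:40755237-40755536, reverse strand), and of Inka2 (chr3:105705208-105705507, forward strand, a second start of the gene), the gene outside the list that separated the arms on the higher side as Cdkn1a did.
Cdkn1a: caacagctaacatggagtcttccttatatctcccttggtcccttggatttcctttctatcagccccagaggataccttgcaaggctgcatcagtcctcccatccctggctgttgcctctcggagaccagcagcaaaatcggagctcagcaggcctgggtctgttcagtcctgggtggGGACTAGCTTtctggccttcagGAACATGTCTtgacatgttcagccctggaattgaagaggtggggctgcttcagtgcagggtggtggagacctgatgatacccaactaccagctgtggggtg
Mdm2: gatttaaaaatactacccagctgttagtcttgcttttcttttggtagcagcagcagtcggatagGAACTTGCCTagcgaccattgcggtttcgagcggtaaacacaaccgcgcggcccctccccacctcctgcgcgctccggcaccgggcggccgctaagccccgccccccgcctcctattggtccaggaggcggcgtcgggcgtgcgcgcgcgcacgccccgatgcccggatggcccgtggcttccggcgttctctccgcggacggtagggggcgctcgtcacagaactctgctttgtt
Ccng1: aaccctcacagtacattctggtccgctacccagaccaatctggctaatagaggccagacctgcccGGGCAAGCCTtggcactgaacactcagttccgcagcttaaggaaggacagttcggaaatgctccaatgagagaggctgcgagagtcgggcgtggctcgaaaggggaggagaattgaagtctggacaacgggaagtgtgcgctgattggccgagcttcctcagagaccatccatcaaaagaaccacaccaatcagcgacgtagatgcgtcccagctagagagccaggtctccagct
Inka2: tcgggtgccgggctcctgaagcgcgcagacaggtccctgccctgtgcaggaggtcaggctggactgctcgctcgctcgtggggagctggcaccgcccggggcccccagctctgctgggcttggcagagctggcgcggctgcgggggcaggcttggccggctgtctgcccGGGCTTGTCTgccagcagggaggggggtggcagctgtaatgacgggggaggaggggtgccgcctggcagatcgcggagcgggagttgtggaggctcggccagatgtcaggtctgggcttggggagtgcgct
The Cdkn1a promoter holds 2 decamers, GGACTAGCTT and GAACATGTCT, the first bases of which lie 73 and 51 bases before the start. The decamer of Mdm2 begins 186 bases before the start, that of Ccng1 185 bases before it and that of Inka2 81 bases before it.

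The next genes by p-value were not called in edgeR, and their values are given as a description. On the lower side, besides Ctsf and Fam167b, these were Prdm1 (Blimp-1, a transcriptional repressor of lymphocytes and myeloid cells, -0.95), Krt16 (a keratin of stressed skin, -5.21), Pcdh12 (an endothelial protocadherin, -0.75), Tdrkh (-0.69), Mb21d2 (-0.45) and the predicted gene Gm48065. Krt16 rests on ICB tumor 2, which had 58.9 CPM, while no cisplatin-treated tumor exceeded 0.217 CPM, and without ICB tumor 2 it was too low to be tested. Prdm1 measured 10.7 to 22.3 CPM in PBS and 8.20 to 12.6 CPM in cisplatin tumors, and 19.2 to 40.7 CPM with ICB against 4.36 to 20.6 CPM with cisplatin+ICB, so the ranges overlapped in both settings. On the higher side were Cd80 (a costimulatory ligand of antigen-presenting cells, 0.62), Trem1 (an activating receptor of neutrophils and monocytes, 1.46), Nt5e (CD73, which makes adenosine, 0.68), Chil3 (a chitinase-like protein of monocytes and macrophages, 2.01), Zfp365 (0.69), Trim7 (0.65), Ankrd23 (1.2) and the predicted gene Gm48273. Cd80 reached 56.7 CPM in cisplatin+ICB tumor 1, and Trem1 40.9 CPM in the group of that tumor, and without it their differences were 0.48 and 1.06. In the 17 tumors the leading genes also included Fgf7 (a fibroblast growth factor, 0.42), Fndc10 (0.43) and AI506816, which were higher, and Matk (a kinase that inhibits SRC family kinases, -0.72), which was lower.

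Macrophage markers lay on the lower side. All 8 had a difference below 0, with a median of -0.67, and 5 were lower at an unadjusted p-value under 0.05 (62.5%, against 2.99% of all genes). The count was again 5 without cisplatin+ICB tumor 1 (against 3.65% of all genes), with a median of -0.59, and 0 were DEGs. Cd68 (a lysosomal glycoprotein) measured 188.6 to 213.6 CPM in PBS tumors and 147.1 to 188.0 CPM in cisplatin tumors, and 335.8 to 751.8 CPM with ICB against 124.1 to 350.7 CPM with cisplatin+ICB. Without ICB the groups thus did not overlap by a margin of under 1 CPM, and with ICB they did. Its difference was -0.65 (edgeR unadjusted p = 0.00767). C1qb (a chain of complement C1q) measured 252.1 to 561.4 CPM in PBS and 145.9 to 461.5 CPM in cisplatin tumors, and 630.2 to 1773 CPM with ICB against 337.2 to 720.9 CPM with cisplatin+ICB, a difference of -0.75. Csf1r (the receptor that macrophages need to survive) had means of 294.0 ± 74.0 CPM in PBS (SD, n = 4), 248.1 ± 70.1 CPM in cisplatin (n = 4), 931.3 ± 351.2 CPM in ICB (n = 5) and 340.1 ± 172.6 CPM in cisplatin+ICB tumors (n = 5). The sum over the 8 markers ranged from 1618 to 2379 CPM in PBS, from 972.8 to 2321 CPM in cisplatin, from 3511 to 9893 CPM in ICB and from 2095 to 3957 CPM in cisplatin+ICB tumors. The median difference of the 8 genes was -0.20 without ICB and -0.99 with ICB, and 3 of the 8 had an unadjusted interaction p-value under 0.05 (7.14% of all genes did), and 0 passed the adjusted threshold.

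Among other myeloid markers the directions were mixed. Of 5 neutrophil markers tested, 4 were above 0, with a median of 0.33 (0.95 without ICB and 0.30 with ICB), and 2 were higher at an unadjusted p-value under 0.05 (against 2.35% of all genes), the calprotectin genes S100a9 and S100a8. Their differences were 1.4 and 1.04 on the log2 scale, and without cisplatin+ICB tumor 1 they were 1.07 and 0.84 and S100a9 alone met that level. Csf3r (the receptor of the growth factor G-CSF) differed by 0.91 for cisplatin against PBS and by -1.06 for cisplatin+ICB against ICB (-0.75 without tumor 1). The sum over the neutrophil markers was 9.27 to 18.4 CPM in PBS, 16.7 to 33.8 CPM in cisplatin, 59.2 to 166.9 CPM in ICB and 35.2 to 107.8 CPM in cisplatin+ICB tumors. S100a9 measured 0.611 to 4.59 CPM in PBS and 1.71 to 6.55 CPM in cisplatin tumors, and 2.71 to 14.5 CPM with ICB against 5.14 to 39.1 CPM with cisplatin+ICB, overlapping in both settings. Of 4 monocyte markers 1 was higher, Chil3, at 0.108 to 0.776 CPM in PBS and 1.06 to 4.48 CPM in cisplatin tumors, which do not overlap, and 3.12 to 34.3 CPM with ICB against 7.70 to 74.3 CPM with cisplatin+ICB, which do. Ccr2, the chemokine receptor of monocytes, differed by 0.43 (edgeR unadjusted p = 0.109). The monocyte median was 0.43 in the 18 tumors and 0.20 in the 17, and for cisplatin+ICB against ICB it was 0.36 with tumor 1, which had the highest monocyte sum of the 18 tumors (894.9 CPM), and -0.08 without it. Of 7 dendritic cell markers, 6 were below 0, with a median of -0.35 (-0.22 in the 17 tumors), and Ccr7 differed by -0.57. The dendritic cell median combined 0.15 without ICB and -0.70 with ICB (-0.52 without tumor 1). Of the 7 genes, 5 had opposite signs (10707 of all 17819 did). The gene Clec9a (the necrotic cell receptor of cross-presenting dendritic cells), was lower at an unadjusted p-value under 0.05 (-0.99), and its difference was 0.15 for cisplatin against PBS and -1.84 for cisplatin+ICB against ICB. Its interaction had an unadjusted p-value of 0.0022 and an adjusted one of 0.564 in edgeR.

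**Figure D4:**
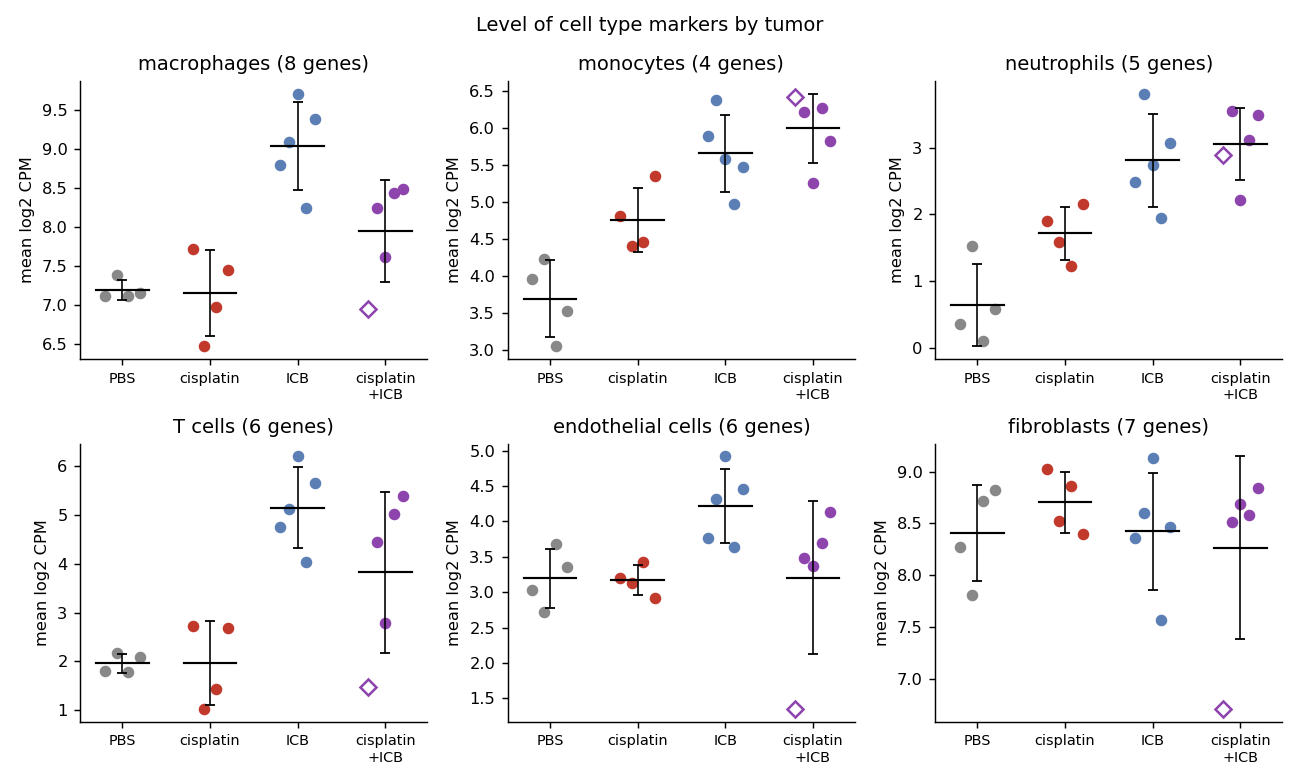
Mean log2 CPM over the markers of macrophages (8 genes), monocytes (4), neutrophils (5), T cells (6), endothelial cells (6) and fibroblasts (7) in each tumor (y axes), by group (x axis). Points are tumors, lines and bars the mean and SD, and the open diamond is cisplatin+ICB tumor 1. The macrophage means were 7.19 in PBS, 7.15 in cisplatin, 9.04 in ICB and 7.95 in cisplatin+ICB tumors.

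For lymphocytes no marker reached an unadjusted p-value under 0.05 in the 18 tumors. The medians were -0.47 over 6 T cell markers, led by Cd3d (-0.55) and Cd3g (-0.55), and -0.74 over the CD8 genes Cd8b1 (-0.78) and Cd8a (-0.71). They were -0.01 over 4 regulatory T cell markers, with Ctla4 at 0.17 and Il2ra at -0.11, and -0.10 over 3 NK cell markers, with Ncr1 at -0.11 and Eomes at -0.10. B cell markers had a median of 0.46 over 5 genes, with Cd79a at 0.46, and plasma cell markers one of 0.26 over 4, with Mzb1 at 0.69 and Jchain at 0.52. Ptprc, the leukocyte antigen CD45, differed by -0.19. Several of these medians average unlike settings, since without ICB and with ICB they were 0.12 and -0.91 for T cells (-0.61 without cisplatin+ICB tumor 1) and 0.59 and -0.48 for regulatory T cells (-0.24). The signs in the settings were opposite for 5 of 6 T cell genes and 4 of 4 regulatory T cell genes, against 10707 of all 17819 genes. In cisplatin+ICB tumors 1 and 3 the summed CD8 genes were at 5.21 and 11.7 CPM and the T cell markers at 19.8 and 43.2 CPM. In the other tumors of that group these sums ranged from 80.4 to 171.8 CPM and from 136.1 to 263.3 CPM, and in the ICB tumors from 88.2 to 318.2 CPM and from 104.6 to 464.1 CPM. With tumor 3 left out, the additive differences of Cd3d and Cd8b1 were -0.38 and -0.60. In the 17 tumors the T cell median was -0.26 and the CD8 median -0.53, Cd3g was at -0.33, Ncr1 at -0.25 and Ptprc at -0.045, and the signs of Il2ra, Eomes and the regulatory T cell median turned.

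Among other cells, all 6 endothelial markers were below 0, with a median of -0.47, and Emcn (endomucin, -0.41, edgeR unadjusted p = 0.0494) was the 1 member under 0.05 (16.7%, against 2.99% of all genes lower and 2.35% higher), followed by Kdr (the VEGF receptor, -0.66). The endothelial median was -0.30 without cisplatin+ICB tumor 1, the lowest of its group for these markers. In the 18 tumors it combined -0.04 for cisplatin against PBS with -0.82 for cisplatin+ICB against ICB (-0.53 without tumor 1). The fibroblast markers had a median of 0.19 over 7 genes, with Lum at 0.53 and Col3a1 at 0.19, and 0 passed that level, while in the 17 tumors the median was 0.27, Lum was at 0.30 and 1 gene was higher at that level (Pdgfra, a receptor of platelet-derived growth factor, 0.41). Mast cell markers had a median of 0.11 over 5 (Kit -0.27, Cpa3 0.14), skeletal muscle markers one of -0.27 over 8 (Myl1 -0.64, Ckm -0.33) and adipocyte markers one of 1.02 over 6 (Cidec 1.10, Plin1 1.08), with 0 genes under 0.05 in each. Without ICB and with ICB the medians were 0.80 and -0.56 for mast cells (-0.43 without tumor 1), and 0.30 and -0.69 for muscle (-0.41). The signs were opposite for 5 of 5 mast cell and 8 of 8 muscle genes, against 10707 of all 17819. In the 17 tumors the muscle median was -0.06, Kit was at -0.06, Cpa3 at 0.32 and Ckm at -0.16. Of 3 keratinocyte markers tested, Krt14 was lower (-4.84) and Krt5 differed by -3.43, with ICB tumor 2 as the high library, and without that tumor they were at -1.76 and -0.23. Of 4 erythroid markers, Alas2 was higher (0.91, and 0.66 with no marker at that level in the 17 tumors) and Hbb-bt differed by 1.33 (0.15 in the 17 tumors), and the list's median was 1.00 with cisplatin+ICB tumor 1 and 0.28 without it. Of 7 mesothelioma markers tested, Krt8 was higher (1.54, and 0.82 in the 17 tumors) and Msln differed by 0.64 (0.26), and neither had an unadjusted p-value under 0.05 without that tumor.

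In the additive model few genes that act on platinum or its lesions differed at 7 days. Of 43 genes of crosslink and excision repair, 0 were higher and 1 was lower at an unadjusted p-value under 0.05, Mad2l2 (REV7, a subunit of the translesion polymerase zeta, -0.22), against 2.35% and 2.99% of all genes, and in the 17 tumors the counts were 1 and 2. The median was 0.12 (0.06 in the 17 tumors), with Rev1 (another translesion polymerase) at 0.25. It combined -0.14 for cisplatin against PBS with 0.24 for cisplatin+ICB against ICB (0.21 without tumor 1), and 30 of the 43 genes had opposite signs (10707 of all 17819 did). At the same level, 9 of the 43 were higher and 0 lower for cisplatin+ICB against ICB, against 1558 and 1281 of all 17819 genes. For cisplatin against PBS, 0 were higher and 0 lower. Of 21 genes of platinum transport and thiol defense, 2 were lower (9.52%, against 2.99%) and 0 higher, with a median of -0.18. In the 17 tumors 2 were also lower, but Txn1 (thioredoxin, -0.30) took the place of Nfe2l2, and the median was -0.12. For cisplatin+ICB against ICB, 5 of the 21 were lower and 1 higher, with a median of -0.30 (-0.09 without tumor 1). For cisplatin against PBS, 0 were lower and 0 higher, with a median of -0.05. Slc31a1 (CTR1, the copper transporter that takes cisplatin into cells) measured 61.5 to 76.3 CPM in PBS and 60.6 to 73.2 CPM in cisplatin tumors, which overlap, and 95.0 to 136.1 CPM with ICB against 61.3 to 79.4 CPM with cisplatin+ICB, which do not. Its difference was -0.35 (edgeR unadjusted p = 0.00765), its unadjusted interaction p-value was 0.0095 and the adjusted one 0.564. Nfe2l2 (NRF2, the regulator of the oxidant defense genes) differed by -0.33 (edgeR unadjusted p = 0.0259), and by -0.24 in the 17 tumors.

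The estimates for most cell cycle genes had opposite signs without and with ICB. Of 28 mitosis and 31 DNA replication genes, 0 reached an unadjusted p-value under 0.05 in either direction, with medians of 0.10 and 0.10, which were 0.02 and -0.01 without cisplatin+ICB tumor 1. Against PBS, the cisplatin tumors had medians of -0.26 and -0.27. Against ICB, the cisplatin+ICB tumors had medians of 0.31 and 0.35, or 0.25 and 0.22 without tumor 1. The signs were opposite for 26 of the 28 mitosis genes and 27 of the 31 replication genes, against 10707 of all 17819 genes. Interaction p-values under 0.05 without adjustment were found for 2 mitosis genes and 8 replication genes (7.14% of all genes), and for 0 and 3 without tumor 1 (5.24% of all genes). The leading genes were Cenpa (0.60) and Cdk1 (0.57) for mitosis, both of which turned negative without that tumor, and Fen1 (-0.17) and Prim1 (0.52, and 0.08 without it) for replication.

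Interferon and inflammatory genes lay mostly below 0, with few members under an unadjusted p-value of 0.05 in the additive model. All 27 genes of the interferon gamma response and antigen presentation had a difference below 0, with a median of -0.33, but 1 reached that level (3.7%, against 2.99% of all genes), B2m, the light chain of MHC class I (-0.40), followed by H2-D1 (-0.37), and the list's median was 0.24 for cisplatin against PBS and -0.70 for cisplatin+ICB against ICB (-0.46 without tumor 1). For cisplatin+ICB against ICB alone, 11 of the 27 were lower at that level and 0 higher, against 1281 and 1558 of all 17819 genes. For cisplatin against PBS, 0 were lower and 1 higher, against 85 and 232 of all genes. The mean log2 CPM of the list was 6.49 and 7.22 in cisplatin+ICB tumors 1 and 3, 8.50 to 8.74 in the other tumors of that group and 8.71 to 9.17 in the ICB tumors. In the 17 tumors the median was -0.21 and 0 of the 27 reached that level. Of 25 type I interferon-stimulated genes 1 was lower (4%), Tmem173 (STING, the sensor adaptor of cytosolic DNA, -0.44), with Oasl1 at -0.49 and a median of -0.17 (-0.06 in the 17 tumors, with Tmem173 at -0.29). Of 23 inflammatory cytokines and chemokines 3 were lower (13%, and 2 in the 17 tumors), including Ccl12 (a monocyte chemoattractant, -0.51) and Il1b (-0.88), with a median of -0.37 (-0.21 in the 17 tumors), which combined 0.01 without ICB and -0.42 with ICB. The list of 16 cytotoxic effector genes also holds genes of inhibitory receptors of T cells, Lag3, Pdcd1, Havcr2 and Tigit. Among its members Lag3 was lower (-1.07), with Tnfsf10 (TRAIL) at -0.45. Of these 16, 8 were above 0, and the median of -0.03 (0.09 in the 17 tumors) combined 0.48 without ICB and -0.80 with ICB (-0.57 without tumor 1), with 13 genes of opposite sign (against 10707 of all 17819). Lag3 measured 38.3 to 124.8 CPM with ICB and 2.71 to 42.6 CPM with cisplatin+ICB, and 5.20 to 8.17 CPM in PBS against 3.51 to 6.39 CPM in cisplatin tumors.

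The remaining stress and metabolic lists gave at most 1 gene each at an unadjusted p-value under 0.05, a level at which 2.35% of all genes were higher and 2.99% lower. The BCL2 family had 0 of 16 (Bak1 -0.24, Bbc3, also called PUMA, 0.33, which were -0.15 and 0.21 in the 17 tumors), the immediate-early genes 0 of 20 (Ier3 -0.42, Fos -0.51, median -0.16), and the unfolded protein and integrated stress response 0 of 18 (Vldlr 0.42, Pdia4 -0.16, median 0.09, and -0.10 without cisplatin+ICB tumor 1). Of 23 HIF-1 targets Ankrd37 was higher (0.89, and 0.21 without that tumor), and Bnip3 (a mitophagy receptor) differed by 0.90 and by -0.16 without it. Of 16 glycolytic enzymes Aldoc was lower (-0.49) and Gpi1 differed by -0.23. The 27 collagens and matrix genes had 0, with the collagenase gene Mmp13 at -0.91, the gelatinase gene Mmp9 at -0.39 and a median of -0.13, which was 0.02 in the 17 tumors. The medians of the immediate-early genes and HIF-1 targets in the 17 tumors were -0.05 and -0.06.

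The additive model takes 1 cisplatin effect for tumors with and without ICB, so the effects of both settings, which share no tumor, were set side by side. Their p-values share 1 estimate of the spread, made from all the groups together, so cisplatin+ICB tumor 1 enters those of both settings. Cisplatin against PBS had 317 genes with an unadjusted p-value under 0.05 (1.78%) and cisplatin+ICB against ICB had 2839 (15.9%), with 0 DEGs in edgeR in each and 4 and 52 in DESeq2. Over the 17819 genes the sign was the same for 39.9%, Pearson's r across genes was -0.11 and Spearman's rho -0.27. For the 13235 genes with a mean count of at least 50 these values were 35.5%, -0.27 and -0.43. For the 317 genes under 0.05 in cisplatin against PBS they were 55.5%, 0.107 and 0.145. For the 2839 under 0.05 in cisplatin+ICB against ICB they were 36.5%, -0.13 and -0.30. Without cisplatin+ICB tumor 1, the sign was the same for 53.6% of 17752 genes, r was 0.15, and genes with an unadjusted p-value under 0.05 made up 3.97% for cisplatin against PBS and 9.19% for cisplatin+ICB against ICB. The 18 libraries were normalized together, and genes are not independent replicates, so these values carry no p-value. Among the p53 targets, 19 of 39 were higher in both settings (48.7%, against 20.5% of all genes), and their median was 0.14 without ICB and 0.34 with it. The interaction test called 0 genes in edgeR (smallest adjusted p = 0.564), DESeq2 called 1, and at an unadjusted p-value under 0.05 edgeR counted 1273 genes.

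**Figure D5:**
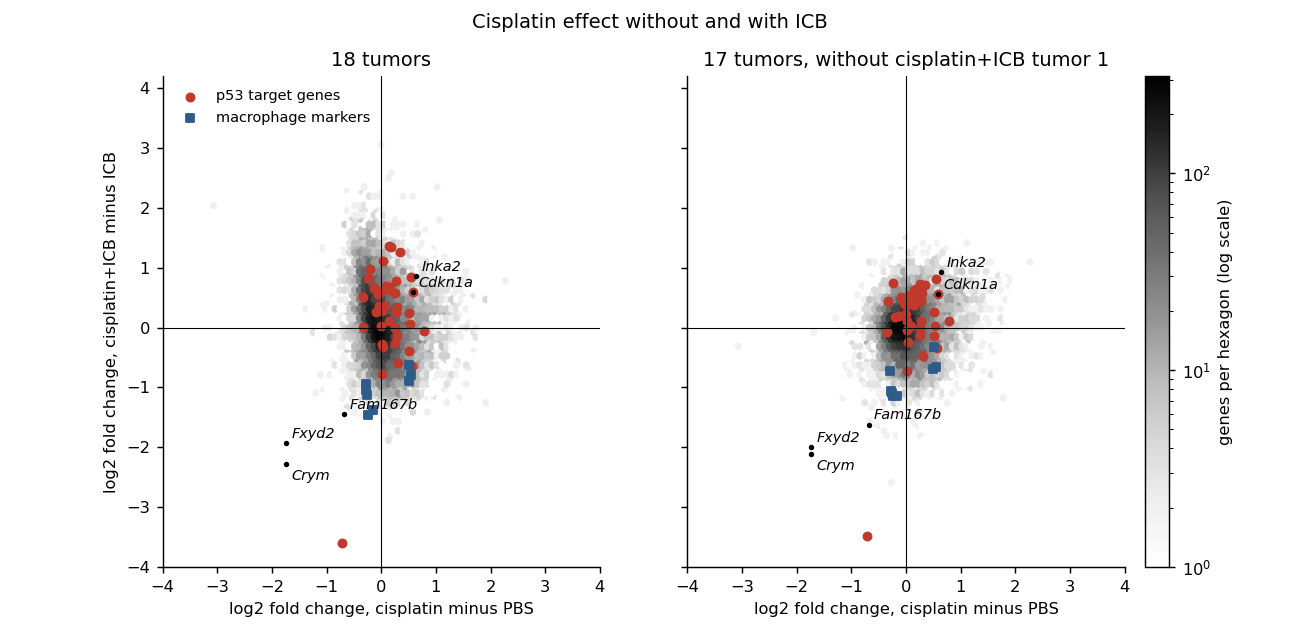
Log2 fold change of cisplatin against PBS (x axis) and of cisplatin+ICB against ICB (y axis) for each gene, for 18 tumors and without cisplatin+ICB tumor 1. The x values are those of the 18-tumor fit in both panels. Shading gives the number of genes per hexagon on a log scale, red points are p53 targets, blue squares macrophage markers, and the axes end at 4 in each direction, so that a few genes lie outside. The sign was the same for 39.9% of genes in the 18 tumors and for 53.6% without that tumor.

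To see which values differed from those after another chemotherapy, the 9 cisplatin-treated tumors were compared with the 10 tumors treated with 5-FU or 5-FU+ICB, again adjusted for ICB. This comparison uses no PBS or ICB tumor. The 5-FU tumors came from a second matrix, so treatment and matrix cannot be told apart, although the 9 PBS and ICB tumors that stand in both matrices differed in 0 values between them. It gave 2010 DEGs of 18072 genes in edgeR (11.1%), 820 higher with cisplatin (4.54%) and 1190 lower (6.58%), and 1569 (8.72%) without cisplatin+ICB tumor 1, of which 600 were higher (3.34%) and 969 lower (5.39%). The count depended on single tumors. It was 558 without cisplatin tumor 2 and 3465 without 5-FU+ICB tumor 2, lay between 621 and 852 without cisplatin tumor 3 or 4, 5-FU tumor 3 or 5 or 5-FU+ICB tumor 1 or 5, and was 1099 without cisplatin+ICB tumor 3. Of the p53 targets, 15 of 39 were higher with cisplatin and 1 lower, and 10 and 0 without cisplatin+ICB tumor 1. Cdkn1a was 0.62 higher on the log2 scale (edgeR adjusted p = 0.00866), Mdm2 0.61 (0.0183), Ccng1 0.85 (0.0248), Bax 0.68 (0.0465), Phlda3 0.86 (0.0481) and Trp53cor1 2.00 (0.00257), while Zmat3 differed by 0.18 (0.634) and Trp53inp1 by 0.02 (0.966). The differences of Bax and Phlda3 without cisplatin+ICB tumor 1 were 0.44 and 0.50, just under the fold change threshold, so that neither was a DEG. Inka2 was higher than after 5-FU by 0.81 (edgeR adjusted p = 0.0129). Crym (-1.90, adjusted p = 0.0144), Fxyd2 (-1.29, adjusted p = 0.0248) and Fam167b (-1.05, adjusted p = 0.0358) were lower with cisplatin than with 5-FU. Fgf23 had the opposite sign in the comparison with 5-FU from that with tumors without chemotherapy. It was lower with cisplatin than with 5-FU (-1.90, edgeR adjusted p = 0.0486, and 0.0659 without cisplatin+ICB tumor 1), with 5.90 ± 3.59 CPM in 5-FU and 11.2 ± 16.3 CPM in 5-FU+ICB tumors (SD, n = 5 each). Ctsf (-0.51, edgeR adjusted p = 0.151) and Vdac2 (-0.11, adjusted p = 0.5) were not called in this comparison.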

How the data were processed

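Bulk RNA of whole tumors was sequenced single-end. The authors demultiplexed the reads with bcl2fastq 2.20.0.422 and quantified them with kallisto 0.46.0 against GRCm38/mm10 (both per the submitters' processing notes), and used tximport to sum transcripts into genes. The values they deposited are estimated counts with no normalization. Of the values, 23.8% were not whole numbers, since reads shared by transcripts are divided among them, and all were rounded before testing. Near-identical gene copies are therefore uncertain. The matrix held 55341 gene names, 26 of which had turned into dates and were not named here (21 among the genes tested). Columns were matched to tumors by their labels.

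Genes were filtered with edgeR's filterByExpr by group, normalized by TMM and tested with edgeR 4.0.16 (glmQLFit, glmQLFTest) in R 4.3.3, with ICB as the covariate. Filter and normalization were recomputed without cisplatin+ICB tumor 1. The effects within tumors with and without ICB, and their interaction, came from a model of the 4 groups. P-values were adjusted over all genes tested by the Benjamini-Hochberg method. Log2 CPM used a prior count of 2, and standard errors were derived from the F statistic. DESeq2 1.42.0 and limma 3.58.1 (voom) were alternatives. The other alternatives were another scaling, other filters, group means in place of the additive model, no covariate, the replicate number as a block, other fold change thresholds and each tumor left out in turn. Recounting the p53 targets and macrophage markers under each alternative was added after seeing the data. The procedure was tested on simulated data.

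Genes named are Trp53 and 8 p53 targets, the 10 genes in each direction with the smallest p-values and a mean count of at least 50 (DEGs first), the 5 leading genes in each direction without cisplatin+ICB tumor 1, and the leading members of 15 process and 19 cell type lists, 1 gene of which is not reported here. The tumors, members and lists were chosen with earlier results of these data known. Genes named for their values, or as members of a list with an unadjusted p-value under 0.05, are named after their values were seen.

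The total of 25502173 to 33950805 counts per tumor gives a floor of 3 counts at 0.0863 to 0.159 CPM, which covers counting error only. The replicates are tumors of separate mice. Between any 2 tumors of a group the chi-square of their counts was at least 16.6 per degree of freedom, where sampling noise gives about 1, so no library was counted as a copy of another. The labels gave no sequencing batch. Columns of the authors' own comparisons were not used.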

Additional observations from a re-analysis of the deposited data

Results flagged for a closer look

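In groups of 4 or 5 tumors, the highest or lowest tumor was compared with the rest of its group by Dixon's 95% critical value, for 34 genes and 34 lists in the 4 groups, 272 tests in all. Chance alone puts about 1 in 20 groups past that value, and 24 were past it. Of these, 9 were in cisplatin+ICB tumor 1 and 5 in PBS tumor 2.

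Cisplatin+ICB tumor 1 was the highest of its group for Phlda3 (289.9 CPM, against 58.7 to 82.7 in the others), Bax (300.9 CPM, against 81.4 to 109.4) and Cd80 (56.7 CPM, against 25.8 to 29.3). It was the lowest for Trp53 (42.9 CPM, against 134.0 to 151.8), Trp53inp1 (27.5 CPM, against 48.1 to 53.9) and AI506816 (3.14 CPM, against 14.0 to 18.3). In mean log2 CPM over a list it was the lowest for collagens and matrix (6.11, against 7.98 to 8.17), fibroblasts (6.71, against 8.52 to 8.84) and endothelial cells (1.35, against 3.37 to 4.13).

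PBS tumor 2 was the highest of its group for Mdm2 (92.9 CPM), Fam167b (3.37 CPM) and Trem1 (5.97 CPM), and in mean log2 CPM for the macrophage markers (7.38) and the inflammatory cytokines and chemokines (2.97). PBS tumor 1 was the highest for Trp53cor1 (1.13 CPM), PBS tumor 4 the highest for Trp53inp1 (33.0 CPM), and PBS tumor 3 the lowest in mean log2 CPM for mast cell (2.53) and keratinocyte markers (-2.18). Cisplatin+ICB tumor 3 was the highest for Inka2 (10.7 CPM), Pcdh12 (1.77 CPM) and the crosslink and excision repair genes (mean log2 CPM 4.78). Among ICB tumors, tumor 3 was the highest for Fndc10 (5.06 CPM), tumor 1 the lowest for glycolytic enzymes (mean log2 CPM 8.19) and tumor 4 the lowest for NK cell markers (mean log2 CPM 2.61).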

How the results depend on the processing

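For the cisplatin main effect adjusted for ICB in 18 tumors, the number of DEGs was 2 in edgeR, 6 in DESeq2, 14 in limma's voom with sample weights, 1 without a filter and 1 with at least 10 counts in every tumor (Crym was then not tested). It was 0 with DESeq2's size factors (smallest adjusted p 0.0561), with group means (0.0778), without the ICB covariate and with the replicate number as a block (0.222). It stayed 2 with no fold change threshold and with one of 1. Leaving out each tumor gave 0 to 2. In the 17 tumors the count was 0 in edgeR, 14 in DESeq2, 7 in voom, 1 without a filter, 2 with at least 10 counts in every tumor, 0 with the block and 0 to 1 with a further tumor left out. DESeq2 called 1 gene for the interaction, 4 for cisplatin against PBS and 52 for cisplatin+ICB against ICB, where edgeR called 0, also with the block and with each tumor left out. For cisplatin against 5-FU adjusted for ICB, where edgeR called 2010, DESeq2 called 3442, the block left 497, and leaving out each tumor gave 558 to 3465. The replicate numbers did not pair the tumors (25 pairs, r from -0.657 to 0.494, 7 over 0.1, and 3 tumors closest to their own number). Of 2607 values of the 101 named genes under other settings, 2541 kept direction and side of the threshold, 36 were no longer called, 10 were newly called and 20 reversed, in 10 genes. Reversed were Cpa3 without the covariate (-0.13), Ckm (0.81) and Myl1 (0.19) with the block, and, with voom, Cdk1 (-0.075), Cenpa (-0.070), Ckm (1.75), Il2ra (0.011), Krt5 (0.19), Mmp9 (0.046) and Myl1 (1.71). With each tumor left out, the range crossed 0 for Cpa3 (-0.11 to 0.40, negative without PBS tumor 3 or cisplatin+ICB tumor 5), Ckm (-0.50 to 1.83) and Myl1 (-0.88 to 0.90), both positive without ICB tumor 3, and Il2ra (-0.27 to 0.10, positive without ICB tumor 2 or cisplatin+ICB tumor 1). Without cisplatin+ICB tumor 1 it also did for Bnip3 (-0.16 to 1.10), Cdk1 (-0.082 to 0.72), Cenpa (-0.13 to 0.78) and Eomes (-0.22 to 0.070). The cause of these changes was not tested. For genes near 3 counts, as Fgf23 without cisplatin, depth limits the fold change.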
